A study of Mus musculus with 3 samples.

Results

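Open chromatin was described at 10 integrin genes, Itgb3, Itgav, Itga2, Itga4, Itga6, Itgb1, Itgb2, Itgal, Itgam and Itgb7, among 32546 annotated genes. The genes were taken from a written list, and the remaining 16 integrin genes of the mouse served for comparison. The cells were long-term hematopoietic stem cells (LT-HSCs) sorted from bone marrow enriched for c-Kit, from wild-type female C57BL/6 mice aged 24 months, for which the labels give no treatment. DOGMA-seq, a method that profiles open chromatin by ATAC together with RNA and surface proteins in single cells, gave 3 libraries of 1 pool of cells. Each group of cells is therefore 1 sample, no test between groups was run, and the intervals given are exact 95% intervals of counting error only. The sources used here do not say how many mice were pooled.

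The ATAC library held 43705382 fragments, 40907779 of them in the 4369 barcodes called as cells. Antibody tags were counted for 3724 of these barcodes, and the 3629 cells with at least 10 tags, which held 38498362 fragments on nuclear chromosomes, were kept. The RNA matrix was not analysed here, so the levels below are those of chromatin and not of transcripts. The promoters of 8 stem cell marker genes had a median level of 7.71 fragments per kb per 1000000 nuclear fragments. Their levels ran from 0.247 for Mecom to 23.0 for Mllt3. The value of Mecom is that around its annotated gene start, with 19 fragments, while the gene and 2 kb upstream held 18012. Other transcript starts of the marker genes were not examined, so a low value there does not show a closed gene. For megakaryocyte markers the median was 4.46, and it lay between 0.273 and 0.623 for erythroid, myeloid, macrophage, B cell and T cell markers. In that order, the highest promoters of the lists from erythroid to T cell were Epor at 6.84, Prtn3 at 4.54, Vcam1 at 1.25, Ebf1 at 6.37 and Lck at 1.92. Markers of stroma and endothelium had a median of 2.97, with Cxcl12 at 5.52, Pecam1 at 4.87, Lepr at 1.06 and Cdh5 at 0.779.

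Integrins are receptors for matrix and for other cells, each made of an alpha and a beta subunit that cross the membrane together. Itgb3 encodes the beta 3 subunit, known on the surface as CD61, which pairs with alpha v (Itgav) and, on platelets and megakaryocytes, with alpha IIb (Itga2b). Itgb1 encodes beta 1, the partner of alpha 2 (Itga2), alpha 4 (Itga4) and alpha 6 (Itga6) and a main anchor of stem cells in the marrow. Itgb2 encodes beta 2, the leukocyte subunit that pairs with alpha L (Itgal) and alpha M (Itgam), and Itgb7 encodes beta 7, a further partner of alpha 4. CD61 is also a marker with which the study separated platelet-biased from multi-lineage stem cells.

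The CD61 antibody was read through a DNA tag of 15 bases, shown because every comparison by CD61 rests on counting it.
CD61 tag: ttctttacccgcctg
A cell held a mean of 3.76 CD61 tags and at most 56, with a median of 3. Cells with at least 6 CD61 tags are called CD61-high (779 cells) and those with at most 1 are called CD61-low (727 cells).

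Open sites were windows of 300 bp with a local maximum of transposase insertions and at least 10 times the genome's mean, called on all kept cells without regard to CD61. The genome held 130710 such sites and the 10 genes held 89, of which 16 lay in Itgb3. Shown are stretches of DNA from 5 strong or unequal sites, on the strand of the gene and from the GRCm38.p6 assembly, which has the mm10 coordinates. At promoters only the 250 bases before the start are printed. Capitals mark motifs searched on both strands, each named after a family of factors that reads it. They are AGATAA for the family of Gata1, TGTGGT for RUNX, AGGAAG for ETS, CAGCTG for E-box, GGGCGG for SP, and TGACTCA or its reverse complement TGAGTCA for AP-1. The first motif is called GATA below, and matches of the same or of different motifs were allowed to overlap.
Itgb3 promoter, chr11:104607750-104607999, plus strand: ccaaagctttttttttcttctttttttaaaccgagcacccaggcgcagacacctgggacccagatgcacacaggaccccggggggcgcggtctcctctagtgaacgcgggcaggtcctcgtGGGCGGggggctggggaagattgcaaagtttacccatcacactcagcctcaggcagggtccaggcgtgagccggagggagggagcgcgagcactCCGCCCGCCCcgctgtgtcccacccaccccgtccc
Itgb3 intron 1 site, chr11:104611637-104611936, plus strand: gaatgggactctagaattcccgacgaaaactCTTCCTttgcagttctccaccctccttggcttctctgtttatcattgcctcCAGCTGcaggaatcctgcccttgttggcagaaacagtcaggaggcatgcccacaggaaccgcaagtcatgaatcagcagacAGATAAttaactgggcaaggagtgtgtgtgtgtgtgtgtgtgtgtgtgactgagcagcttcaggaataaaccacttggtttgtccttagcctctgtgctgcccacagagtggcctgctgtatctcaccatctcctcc
Itgb3 intron 10 site, chr11:104657736-104658035, plus strand: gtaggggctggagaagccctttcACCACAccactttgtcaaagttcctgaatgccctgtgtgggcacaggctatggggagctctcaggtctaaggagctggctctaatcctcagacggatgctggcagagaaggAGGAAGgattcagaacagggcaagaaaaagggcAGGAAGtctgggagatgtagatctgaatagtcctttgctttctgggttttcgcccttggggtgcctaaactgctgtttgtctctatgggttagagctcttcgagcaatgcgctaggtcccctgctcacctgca
Itgb1 promoter, chr8:128685404-128685653, plus strand: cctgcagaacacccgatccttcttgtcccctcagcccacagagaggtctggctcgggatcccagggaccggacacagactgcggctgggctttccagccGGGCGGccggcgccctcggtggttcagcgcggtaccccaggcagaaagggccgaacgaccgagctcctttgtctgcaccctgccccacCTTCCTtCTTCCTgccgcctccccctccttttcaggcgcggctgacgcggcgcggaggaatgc
Itgb7 intron 2 site, chr15:102225269-102225568, minus strand: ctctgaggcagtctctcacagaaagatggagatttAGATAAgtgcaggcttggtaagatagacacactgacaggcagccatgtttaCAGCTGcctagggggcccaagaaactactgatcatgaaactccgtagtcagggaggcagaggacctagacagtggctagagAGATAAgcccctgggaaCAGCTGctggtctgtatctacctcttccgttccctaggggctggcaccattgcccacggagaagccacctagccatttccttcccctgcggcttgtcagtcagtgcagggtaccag

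The Itgb3 promoter stretch held 3 SP matches, 17 CpG dinucleotides and 64.4% G and C, and none of the other motifs. The intron 1 site of Itgb3, its strongest site away from the promoter, held 1 match each of ETS, E-box and GATA. The intron 10 site, with the highest ratio by CD61 among the well-covered sites of Itgb3, held 1 RUNX and 2 ETS matches. The Itgb7 intron 2 site held 2 GATA and 2 E-box matches. Over all 16 Itgb3 sites, 8 held a RUNX match, against 21.7% of all open sites of the genome. GATA was found in 3 of the 16, ETS in 6, E-box in 6, SP in 3 and AP-1 in none. The shares over all open sites were 9.89% for GATA, 39.5% for ETS, 17.7% for E-box, 26.8% for SP and 6.92% for AP-1. In the 250 bases before the 10 gene starts, 6 held ETS and 4 held SP, against 29.7% and 31.2% of all genes. A match describes the letters only and does not show that a factor was bound.

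Levels are given as fragments per kb per 1000000 nuclear fragments, for the gene region (the gene and 2 kb upstream) and for the promoter (1 kb on each side of the annotated gene start). Itgb3 (chromosome 11, 104608000 to 104670476, plus strand) had a gene region level of 1.51 (1.46 to 1.56), from 3739 fragments, above 66.7% of coding genes. Its promoter level was 11.8 (11.1 to 12.6), above 68.2% of coding genes, against a coding median of 4.96. The gene of CD61 was thus open in these cells, and 59.0% of cells had at least 1 fragment in its region. At the promoter, 20.6% of cells had a fragment, with a median depth of 10287 fragments per cell over the whole genome.

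Itgav (chromosome 2, 83724397 to 83806916), the alpha v partner of beta 3, had a promoter level of 12.7 (11.9 to 13.6), whose interval overlapped that of Itgb3. Over its longer region the level was 0.649 (0.622 to 0.678), below the coding median of 0.822. Itga2b, the platelet partner and no member of the list, had the highest region level of all 26 integrin genes, at 6.82, and a promoter level of 10.8. The 3 genes that encode beta 3 and its partners thus had promoter levels between 10.8 and 12.7, while their region levels were far apart.

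Itgb1 (chromosome 8, 128685654 to 128733200) had the highest promoter level of the 10 genes, 18.4 (17.5 to 19.4), above 81.5% of coding genes. Its region level was 1.05 (1.003 to 1.095), and 71.0% of its fragments lay at the promoter. Itga4 (chromosome 2, 79255426 to 79333123), whose product holds stem cells to VCAM1, had a promoter level of 12.2 (11.5 to 13.0) and a region level of 0.771 (0.740 to 0.803). Itga2 (chromosome 13, 114833081 to 114932100, minus strand), a collagen receptor subunit, had low levels of 4.17 (3.72 to 4.65) and 0.322 (0.305 to 0.341). Among the partners of beta 1, alpha 4 therefore had a promoter about as open as that of Itgav, and alpha 2 one below the coding median.

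Itga6 (chromosome 2, 71745616 to 71858416), a laminin receptor subunit, stood apart in where its signal lay. The promoter level at its annotated gene start was 1.77 (1.48 to 2.09), below the coding median. That start belongs to a noncoding transcript, and the main coding transcript starts 41324 bp downstream. At the annotated transcript start with the most insertions, 41313 bp from the gene start, the level was 17.4 (16.5 to 18.4), from 1340 fragments. The site there was the strongest of all 89, with 1277 insertions, above 95.3% of the open sites of the genome. In total Itga6 held 22 open sites and 5494 fragments, and its region level was 1.24 (1.21 to 1.28). Only at Itga6 did choosing the transcript start this way move the promoter level outside its interval.

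Of the leukocyte integrin genes, Itgal (chromosome 7, 127296260 to 127335138), which encodes alpha L, had a promoter level of 4.96 (4.47 to 5.48), at the coding median. For Itgb2 (chromosome 10, 77530252 to 77565708) the level was 3.02 (2.65 to 3.44) and for Itgam (chromosome 7, 128062640 to 128118491) 1.25 (1.01 to 1.52). Region levels were 0.707 (0.666 to 0.749) for Itgal, 0.761 (0.717 to 0.808) for Itgb2 and 0.361 (0.336 to 0.386) for Itgam. Itgam lay wholly inside the region of Gm49368, so its fragments cannot be told apart from those of that gene.

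Itgb7 (chromosome 15, 102215995 to 102231944, minus strand) had the highest region level of the 10, 2.39 (2.27 to 2.50), above 78.5% of coding genes. Its promoter level was only 2.40 (2.07 to 2.77). Sites away from the promoter took 71.3% of its fragments, chief among them a cluster of 5 sites between 6224 and 7570 bp from the start. The strongest of these, in coding exon 3, had 735 insertions, and the intron 2 site whose bases are printed above had 507. Itgb7 was thus open mainly inside the gene, and Itgb1 mainly at its start. The strongest site of Itga6 lay inside its annotated gene but at the start of its main coding transcript.

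**Figure D1:**
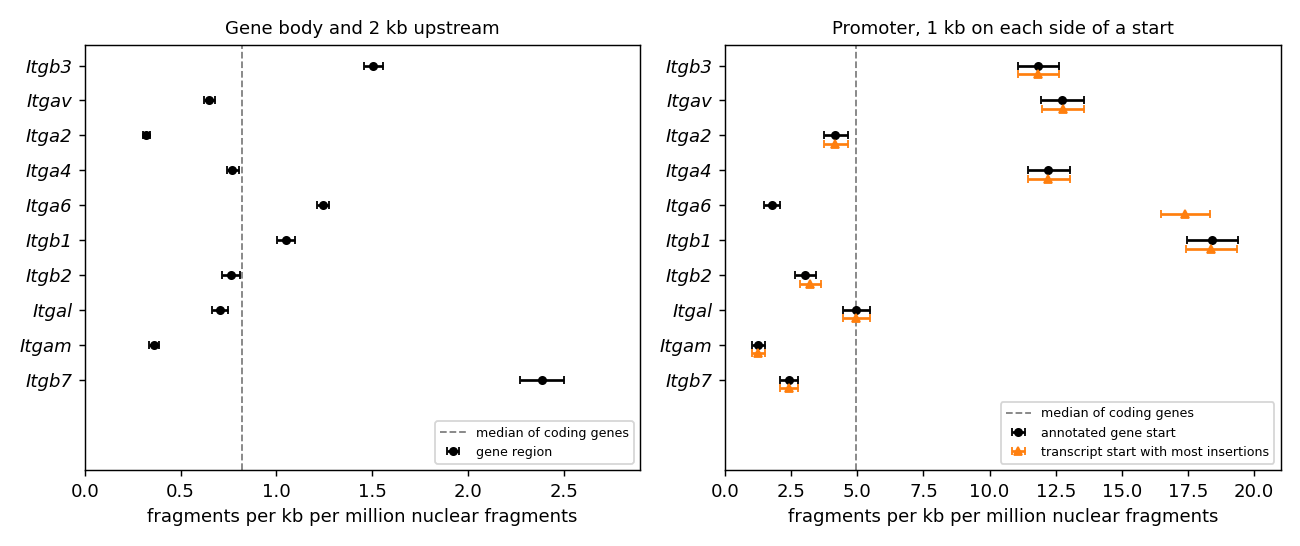
Level of each gene over its region (left) and at its promoter (right), in fragments per kb per 1000000 nuclear fragments, with exact 95% Poisson intervals as bars. The dashed lines are medians of coding genes, triangles use the annotated transcript start with the most insertions, and Itga6 rises from 1.77 to 17.4 between the 2 kinds of start.

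The order of the promoter levels ran from Itgb1 over Itgav, Itga4, Itgb3, Itgal, Itga2, Itgb2, Itgb7 and Itga6 to Itgam. The intervals of Itgav, Itga4 and Itgb3 overlapped each other, as did those of Itgal and Itga2, of Itgb2 and Itgb7, of Itgb7 and Itga6, and of Itga6 and Itgam. Over gene regions the order was Itgb7, Itgb3, Itga6, Itgb1, Itga4, Itgb2, Itgal, Itgav, Itgam and Itga2, and among neighbours only the pairs Itga4 and Itgb2, Itgb2 and Itgal, Itgal and Itgav, and Itgam and Itga2 had overlapping intervals. Other genes shared 14.2% of the fragments of Itgav (Gm13684), 15.5% of those of Itga6 (Gm13647, Gm13663, Gm17250 and Gm13662) and 1.27% of those of Itga4 (Cerkl). ATAC fragments carry no strand, so such overlaps cannot be resolved.

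The 16 open sites of Itgb3 lay at the start, in intron 1 and farther into the gene. At the start, 5 neighbouring sites lay at -662 to 814 bp, and the central one, 62 bp after the start, had 839 insertions, above 91.4% of open sites. Intron 1 held 5 sites, with 518 insertions at 3787 bp and 408 at 6280 bp. Farther in were a site of 286 insertions in intron 5, at 29260 bp, 4 sites in intron 10 and 1 of 234 insertions in the untranslated part of exon 15, at 59586 bp. The promoter took 24.4% of the Itgb3 fragments and other open sites 39.0%. Sites about 300 bp apart can be shoulders of 1 open stretch and share fragments.

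**Figure D2:**
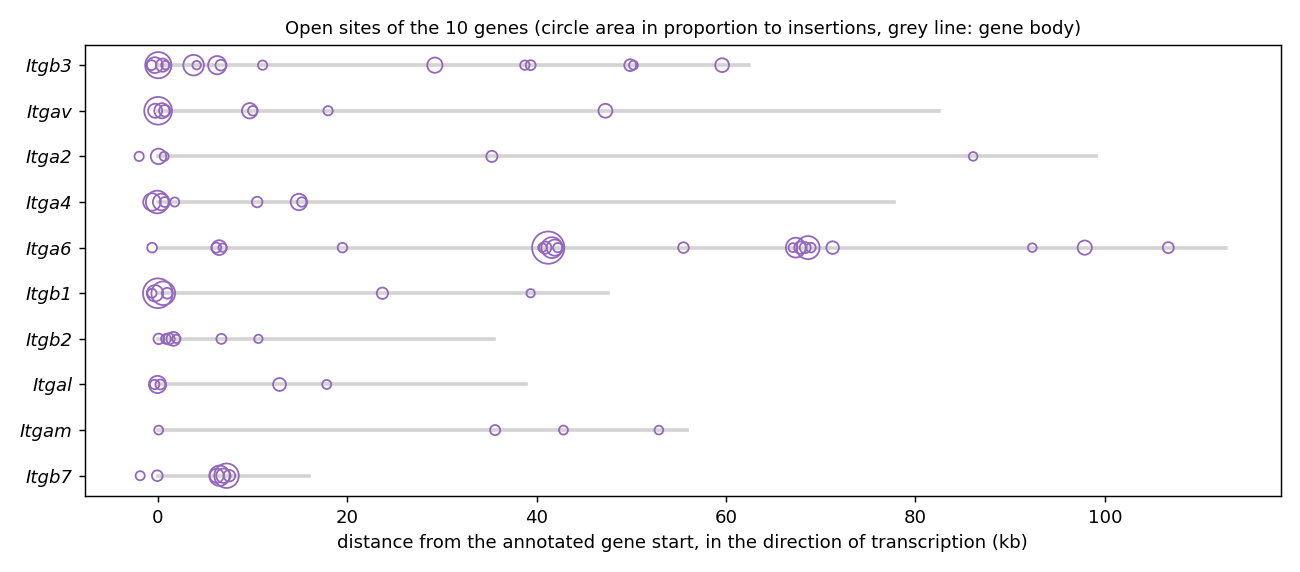
Open sites of the 10 genes by distance from the annotated gene start in kb, with circle area in proportion to insertions and grey lines for gene bodies. Itgb1 is open mainly at its start and Itgb7 between 6224 and 7570 bp. The strongest site of Itga6, at 41227 bp, lies at the start of its main coding transcript.

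Fragments under 150 bp, about the length of DNA around a nucleosome or shorter, were more frequent at promoters and open sites than elsewhere in these genes. At the Itgb3 promoter they made up 33.4% (30.4 to 36.6), against 19.8% (17.7 to 22.0) of fragments away from the promoter and open sites. Itgal had the highest promoter share, 39.8% (34.8 to 44.9), against 11.9% (9.19 to 15.0) elsewhere. Itga6 had the lowest, 22.8% at its annotated start, and 16.4% (14.9 to 18.1) elsewhere. Of the 10 genes, 8 had a promoter interval above that of the remaining fragments, with overlap at Itga6 and Itgb2.

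Whether CD61 on the cell surface went with open chromatin at its own gene was asked by setting CD61-high against CD61-low cells. The CD61-high cells held 8707071 nuclear fragments and the CD61-low cells 7537678. CD61-high cells had a median of 28 tags from the other antibodies and CD61-low cells 22, with medians of 10472 and 10200 fragments. Cells with an excess of sites covered by 3 or more fragments, which can be doublets, made up 13.4% of CD61-high and 4.95% of CD61-low cells. Log2 ratios below are of levels in CD61-high over CD61-low cells, and called means past 1.2-fold with at least 200 fragments over both groups.

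Over the Itgb3 region there were 831 fragments in CD61-high cells, a level of 1.48, and 692 in CD61-low cells, a level of 1.42. The log2 ratio was 0.06 (-0.09 to 0.20), so a difference was not detectable at this depth. The level was 1.62 (1.43 to 1.83) in cells with 0 tags and 1.33 (1.21 to 1.46) in those with 1, and against the cells with exactly 1 tag, a comparison added after the data were seen, the log2 ratio was 0.15 (-0.01 to 0.32), an interval that includes 1.2-fold. At the Itgb3 promoter the counts were 197 and 182, with a log2 ratio of -0.09 (-0.39 to 0.20). Across the classes of 0 to 1, 2 to 3, 4 to 5 and 6 or more CD61 tags, the region level of Itgb3 was 1.42, 1.55, 1.54 and 1.48, and the promoter level was 12.1, 11.2, 12.9 and 11.3. Neither series ran in 1 direction. With the cells of excess overlap left out, the region ratio was 0.04 (-0.12 to 0.20).

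**Figure D3:**
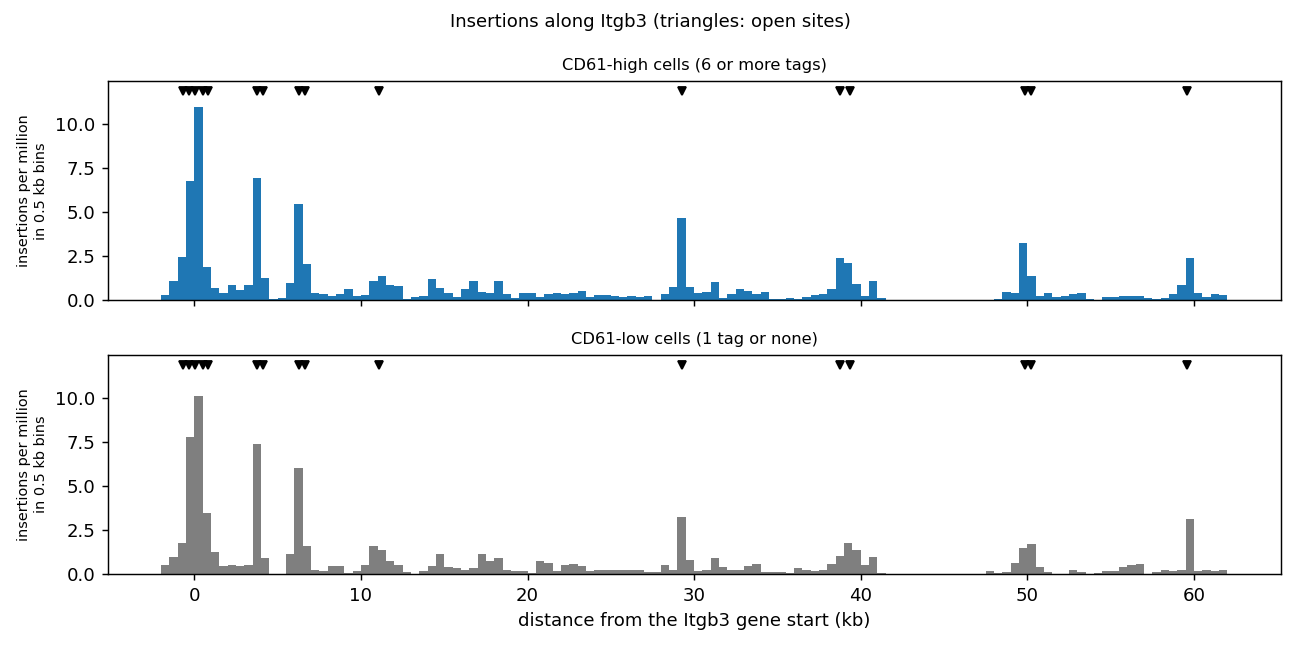
Insertions along Itgb3 in bins of 500 bp, scaled to the nuclear fragments of each group, by distance from its start in kb, for CD61-high (top) and CD61-low cells (bottom), with triangles at open sites. Both groups peak at the promoter and at the same intron 1 sites. The bar that holds 49886 bp is higher in CD61-high cells (36 against 15 fragments at that site), and the bars directly on either side of it are lower.

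Itgav, the partner of beta 3, had 496 and 417 fragments in its region, with a log2 ratio of 0.04 (-0.15 to 0.23), and 0.17 (-0.12 to 0.47) at its promoter. Itga2b, the platelet partner, was at 0.05 (-0.07 to 0.18). None of the genes for beta 3 or its partners was called, and each region interval against the CD61-low cells lay within 1.2-fold in both directions.

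Of the 10 genes, all of which had at least 200 fragments, 0 were called higher and 1 was called lower in CD61-high cells. Over all 17329 genes compared, 3.77% were called higher and 3.46% lower. Because cells of 1 pool are not replicates, no tool for replicated counts and no p-value were used. The gene called lower was Itgb2, the common beta subunit of leukocyte integrins, with 211 and 235 fragments, levels of 0.647 and 0.832, and a log2 ratio of -0.36 (-0.64 to -0.09). Across the 4 classes of CD61 tags its level was 0.832, 0.801, 0.758 and 0.647, with neighbouring intervals overlapping. Within the lowest class, the 232 cells with 0 tags were at 1.10 (0.898 to 1.34) and the 495 cells with 1 tag at 0.704 (0.590 to 0.834). Against the cells with 1 tag alone, a comparison added after the data were seen, the log2 ratio of Itgb2 was -0.12 (-0.44 to 0.20). Within the CD61-low class the call thus depended on the cells with 0 tags. Levels in cells with 2, 3, 4 and 5 tags were 0.833, 0.768, 0.810 and 0.694. With 6 to 7 tags the level was 0.662, and with 8 or more it was 0.627. For 5 or more against 2 or less tags the log2 ratio over the Itgb2 region was -0.33 (-0.54 to -0.12). At its promoter the counts were 39 and 55, under the minimum, with a log2 ratio of -0.70 (-1.33 to -0.09).

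The alpha partners of beta 2 had values on opposite sides of 0, but both intervals included 0 and neither gene was called. Itgal had 241 and 246 fragments and a log2 ratio of -0.24 (-0.50 to 0.02), and Itgam had 200 and 152 and a log2 ratio of 0.19 (-0.12 to 0.50). Itgb7 was at -0.09 (-0.31 to 0.13), Itga2 at 0.02 (-0.24 to 0.28) and Itga6 at 0.02 (-0.10 to 0.14). Itga4 had 488 and 490 fragments and a log2 ratio of -0.21 (-0.40 to -0.03), not past 1.2-fold, with levels of 0.816, 0.800, 0.759 and 0.703 across the CD61 classes. The median over the 10 genes was -0.04, and over all genes compared it was -0.002.

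Itgb1, the widest shared beta subunit, had 446 and 451 region fragments and a log2 ratio of -0.22 (-0.42 to -0.03), which was not called. Its promoter was called lower, with 302 fragments in CD61-high and 343 in CD61-low cells, levels of 17.3 and 22.7, and a log2 ratio of -0.39 (-0.62 to -0.16). The ratio was not past 1.2-fold for 5 or more against 2 or fewer CD61 tags, at -0.24 (-0.43 to -0.06), or for the highest against the lowest cells by CD61 as a centred log ratio within the cell, at -0.24 (-0.46 to -0.03). Only 4 of the 10 promoters (Itgb3, Itgav, Itga4 and Itgb1) had at least 200 fragments, and of these 0 were called higher and 1 lower. Over all 11701 promoters compared, 4.85% were called higher and 3.84% lower. The Itgb1 promoter level was 22.7 (20.4 to 25.3) in cells with 0 to 1 CD61 tags and 18.0 (16.4 to 19.7) in those with 2 to 3. It was 16.6 (14.8 to 18.5) with 4 to 5 and 17.3 (15.4 to 19.4) with 6 or more, so the lowest class stood above the others, whose intervals overlapped.

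**Figure D4:**
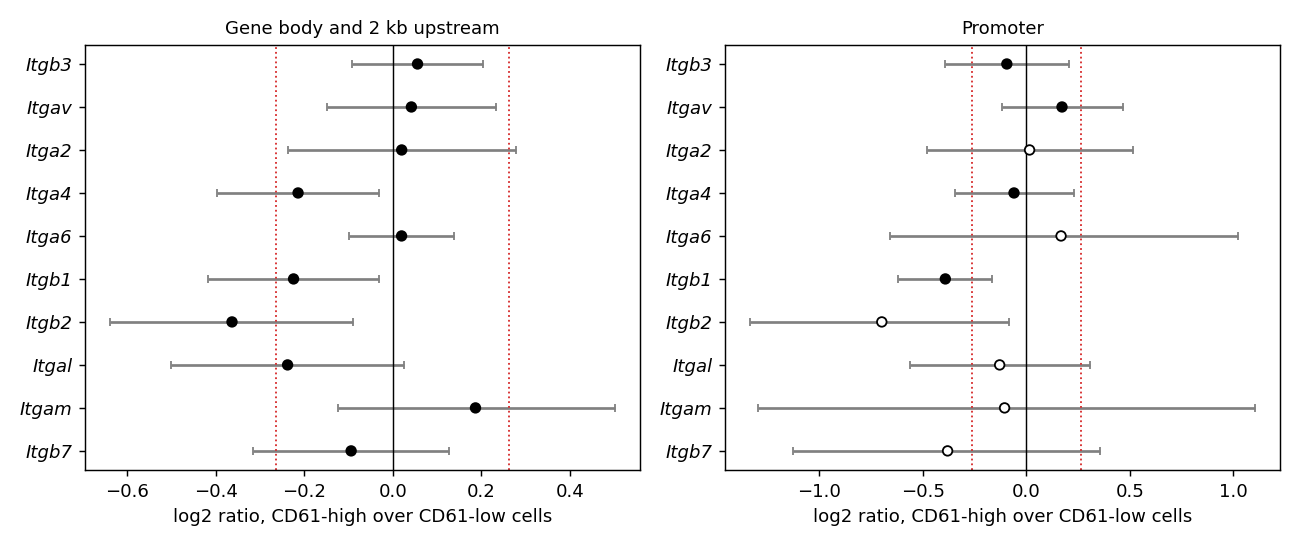
Log2 ratio of CD61-high over CD61-low cells for each gene, over the region (left) and the promoter (right), with exact conditional binomial 95% intervals as bars. Filled points had at least 200 fragments, red dotted lines mark 1.2-fold, and the filled points past them are Itgb2 (region) and Itgb1 (promoter), both lower.

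The 5 promoter sites of Itgb1 lay at the promoter called lower and shared its fragments, so their values are not separate from that call. All 5 had lower values in CD61-high cells, with log2 ratios from -0.31 to -0.78, and the interval left out 0 at 4 of them. The site at the start, 13 bp after it, had 171 and 195 fragments and a log2 ratio of -0.40 (-0.70 to -0.09), and the neighbour at 585 bp had 117 and 149 and a log2 ratio of -0.56 (-0.92 to -0.20). Fragments that span neighbouring sites count at both. The intron sites at 23725 and 39370 bp were at 0.34 (-0.54 to 1.27) and 0.31 (-0.87 to 1.59). With the cells of excess overlap left out, the Itgb1 promoter was at -0.39 (-0.64 to -0.14) and the Itgb2 region at -0.32 (-0.62 to -0.02).

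Among cells at or below the median of tags from the other antibodies the Itgb1 promoter was at -0.62 (-0.99 to -0.28), and among cells above it at -0.24 (-0.57 to 0.10). For the Itgb2 region these values were -0.54 (-0.98 to -0.13) and -0.25 (-0.64 to 0.16). Within cells at or below and above the median of ATAC fragments, the Itgb1 promoter was at -0.30 (-0.68 to 0.07) and -0.44 (-0.73 to -0.15), and the Itgb2 region at -0.31 (-0.80 to 0.18) and -0.41 (-0.75 to -0.07). Both values were thus below 0 in each set, and neither was called among cells with more tags of other antibodies. The Itgb2 promoter, with few fragments, was at -0.99 (-1.97 to -0.15) and 0.25 (-0.82 to 1.52) in the sets by other tags. These sets were chosen after the data were seen. The highest and lowest cells by CD61 as a residual on the other antibodies, a grouping that adjusts for their tags, gave -0.26 (-0.47 to -0.05) at the Itgb1 promoter, not past 1.2-fold, -0.43 (-0.69 to -0.18) over the Itgb2 region and 0.10 (-0.04 to 0.23) over the Itgb3 region.

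**Figure D5:**
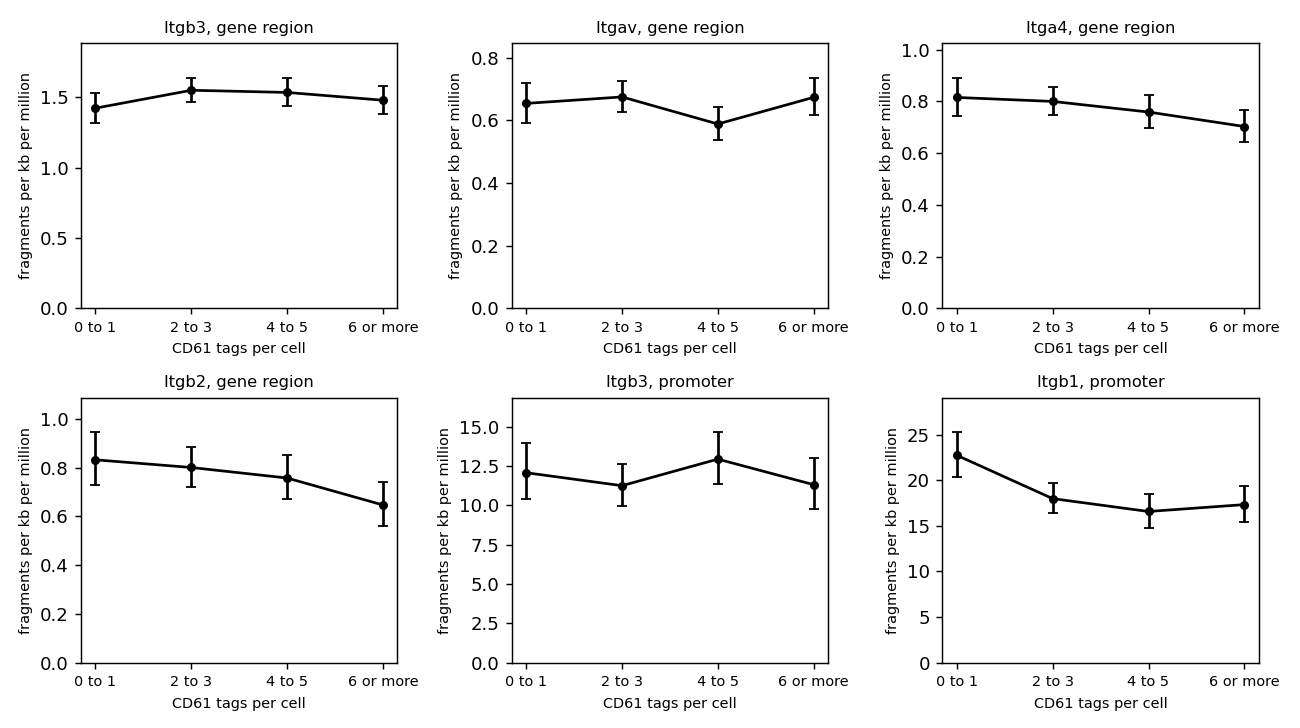
Level in fragments per kb per 1000000 nuclear fragments by class of CD61 tags per cell, with exact 95% Poisson intervals as bars, for 4 gene regions and 2 promoters. Itgb3 stays between 1.42 and 1.55 over its region, and Itgb1 is highest, at 22.7, in cells with 0 to 1 tags.

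By open site, 53 of the 89 sites had at least 50 fragments over both groups, and 2 of them were past 1.5-fold higher and 1 past 1.5-fold lower in CD61-high cells. Of all 91146 sites of the genome with that many fragments, 4.61% were past 1.5-fold higher and 3.22% lower, and this limit was chosen after the data were seen. One of the higher sites was the Itgb3 intron 10 site at 49886 bp, whose bases are printed above, with 36 and 15 fragments and a log2 ratio of 1.03 (0.15 to 2.03). With a window of 500 bp its ratio was 0.74 (-0.06 to 1.61), an interval that includes 0. The other higher site was in intron 12 of Itgam, at 35621 bp, with 33 and 17 fragments and 0.73 (-0.14 to 1.69), and the lower one was the shoulder of the Itgb1 promoter at 997 bp, with 26 and 39 and -0.78 (-1.57 to -0.04).

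The other sites of Itgb3 lay on both sides of 0. Its central promoter site had 137 and 117 fragments, with a log2 ratio of 0.02 (-0.35 to 0.39), and the intron 1 site at 3787 bp had 72 and 64, with -0.04 (-0.54 to 0.47). In intron 5, at 29260 bp, the counts were 50 and 30, with 0.52 (-0.15 to 1.23), and at the promoter site at -662 bp they were 32 and 19, with 0.53 (-0.32 to 1.44). The other sites of intron 10 were under the minimum of 50. The one at 38762 bp had 28 and 13 fragments and 0.87 (-0.10 to 1.97). At 39376 bp there were 24 and 23, with -0.15 (-1.03 to 0.74). At 50226 bp, next to the site at 49886 bp, there were 17 and 16, with -0.12 (-1.19 to 0.96). The shoulder 814 bp after the start had 12 and 25 fragments and -1.24 (-2.39 to -0.22), also under the minimum. Of the 10 Itgb3 sites above that minimum, 5 were above 0. At the main start of Itga6 the counts were 221 and 177, with 0.11 (-0.18 to 0.41), and its intron 2 site at 68660 bp had 104 and 66, with 0.44 (-0.01 to 0.92). Of the 13 Itga6 sites above the minimum, 10 were above 0. Under the minimum, its intron 25 site at 106690 bp had 18 and 31 fragments, with -0.98 (-1.92 to -0.11).

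The study also gated on CD274, CD357 and CD27, so each gene was compared between cells above and at or below the median of each antibody. None of the 10 genes was called in these comparisons, where 4.47% (CD274), 3.64% (CD357) and 4.80% (CD27) of all genes compared were past 1.2-fold in either direction. The values furthest from 0 were Itgam with CD274, at 0.21 (0.01 to 0.42), Itgal with CD274, at -0.18 (-0.35 to -0.003), and Itgb7 with CD27, at 0.16 (-0.003 to 0.32). Itgb3 lay at -0.02 (-0.12 to 0.07) with CD274, -0.02 (-0.11 to 0.08) with CD357 and -0.06 (-0.17 to 0.05) with CD27.

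The gate for platelet-biased cells (PLT: above the median for CD61 and CD274, not above it for CD357 and CD27) took 342 cells, and the opposite gate for multi-lineage cells (MUL) took 61. Only 5 of the 10 genes had 200 fragments over both gates, and none of these was past 1.2-fold, where 29.2% of the 7282 genes compared were. At Itgb3 the PLT gate gave 355 fragments and the MUL gate 71, with a log2 ratio of -0.25 (-0.61 to 0.15). All 10 intervals included 0, and the ratios ran from -0.66 for Itgal to 0.62 for Itgb2, so at this depth no direction was detectable.

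Among the 16 other integrin genes, 15 had at least 200 fragments. Between CD61-high and CD61-low cells 0 of them were called higher and 2 lower, with a median log2 ratio of 0.002. Over all genes compared 3.77% were called higher and 3.46% lower. The 2 called lower were Itga10, at -0.28 (-0.58 to 0.02), and Itgb6, at -0.29 (-0.57 to -0.01), a subunit of a collagen receptor and an epithelial subunit. Itga5, the fibronectin receptor subunit that pairs with beta 1, had 692 and 513 fragments and a log2 ratio of 0.22 (0.06 to 0.39), and Itga11 had 431 and 318 and 0.23 (0.02 to 0.44), neither past 1.2-fold. At the promoter, Itga5 had 121 and 82 fragments and was past 1.2-fold higher, at 0.35 (-0.06 to 0.78). It was the only one called among the 4 promoters of this list with enough fragments, and its interval included 0. Under the minimum, the promoters of Itgb4, at 0.65 (0.18 to 1.13), and Itga11, at 0.91 (0.29 to 1.59), had intervals above 0. No promoter of the list had an interval below 0. Over all promoters compared 4.85% were called higher and 3.84% lower. The region levels of the list ran from 0.167 for Itga8 to 6.82 for Itga2b, with Itga5 at 2.95 and Itgb4 at 2.13.

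Inside the cell, integrins are switched on by talin (Tln1) and kindlin (Fermt3) and linked to actin by adaptors such as Ilk, Parva and Vcl. Of 24 adaptor genes, 23 had enough fragments over their region, and 1 was called higher and 1 lower in CD61-high cells. Over all genes compared 3.77% were called higher and 3.46% lower, so 1 of 23 in each direction was near these shares. Parva, a partner of Ilk, had 360 and 256 fragments and a log2 ratio of 0.28 (0.05 to 0.52). Itgb1bp1, which encodes a protein that binds the tail of beta 1 and curbs its activation, had 376 and 424 and -0.38 (-0.59 to -0.18). Talin and kindlin were not called, at -0.05 (-0.22 to 0.12) for Tln1 and -0.12 (-0.32 to 0.08) for Fermt3. Among 18 ligand genes, 11 had enough fragments over their region. None of these regions was called in either direction, with Fn1 at 0.08 (-0.22 to 0.39) and Vwf at -0.03 (-0.13 to 0.07). At promoters with enough fragments, 1 of 16 adaptors was called higher and 2 lower. Of 7 ligand promoters, 0 were called higher and 1 lower. Over all promoters compared 4.85% were called higher and 3.84% lower.

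Markers of the cells themselves were set beside these values. Promoters of the 8 stem cell markers had a summed level of 89.9 in CD61-high and 79.0 in CD61-low cells, and those of the 8 megakaryocyte markers, among them Itga2b, one of 36.4 and 41.8. For erythroid markers the sums were 15.8 and 17.0, for myeloid markers 8.84 and 8.95, for macrophage markers 3.39 and 2.92, for B cell markers 9.01 and 7.76, for T cell markers 2.12 and 2.72 and for stroma and endothelium 12.9 in both groups. Of the stem cell markers with enough fragments over their region, 1 of 7 was called higher. Of the megakaryocyte markers 2 of 5 were called lower, and of the erythroid markers 1 of 2, which was Epor at -0.34 (-0.65 to -0.02). Over all genes 3.77% were called higher and 3.46% lower. No marker promoter was at 0 over all kept cells, and the lowest of the T and B cell lists were Cd8a, at 0.039, and Ms4a1, at 0.026. Their part in the values at Itgb1 and Itgb2 was not tested.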

How the data were processed

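The data were an ATAC, a gene expression and an antibody tag library of 1 pool of LT-HSCs from mice aged 24 months. ATAC and RNA reads were processed by the authors with cellranger-arc 2.0.2 on its mm10 reference (per the file headers), which writes each distinct fragment with duplicates collapsed and ends shifted for the transposase. The deposited values used here are counts with no normalization, namely fragments with cell barcodes, fragments and UMIs per barcode, and antibody tags per cell from CITE-seq-Count (no version in the sources used here). Doublets were not removed.

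Fragments that overlapped a gene region or promoter of GENCODE M21 were summed over cells. Ratios had 0.5 added to each count. Intervals were exact Poisson, binomial or conditional binomial, and PCR, sorting and animals add error they do not cover. Of genes with repeated symbols the longest was kept. Only the ratio of CD61-high over CD61-low cells and its interval were tested on simulated counts. Genes named were the 26 integrins, members of the adaptor and ligand lists past 1.2-fold with at least 200 fragments, genes that overlap a listed region and cell type markers. Members, lists and rules were chosen with earlier results of these data known. Tln1, Fermt3, Fn1 and Vwf were named after their values were seen.

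Alternatives were other cell filters (no tag minimum, at least 50 tags, without the deepest 5% of cells, without cells with excess overlaps), insertions in place of fragments, other CD61 classes, thinning to 6000 fragments per cell, scaling by fragments at promoters, and other promoter windows, site thresholds and minimums. Scripts ran in Python 3.11.15 (matplotlib 3.10.9, pandas 2.3.3, scipy 1.17.1, numpy 2.4.6).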

Additional observations from a re-analysis of the deposited data

Results flagged for a closer look

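Tags that matched no antibody were a signal outside the comparisons above. Their mean was 4.96 per CD61-high cell, 3.91 per CD61-low cell and 4.35 per kept cell. CD61-high cells also had more tags of the other antibodies, with medians of 28 and 22. With CD61 taken as a residual on the other antibodies, the log2 ratio was 0.10 over the Itgb3 region, -0.43 over the Itgb2 region and -0.26 at the Itgb1 promoter. Tags that matched no antibody were not part of that adjustment.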

How the results depend on the processing

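No paired analysis was possible because all cells came from 1 pool and no result comes from a test over samples. The log2 ratio of Itgb3 over its region ran from -0.06 to 0.15 over 16 alternatives, all within its interval. Of 330 ratios of the 10 genes under alternatives, 306 stayed within their interval, 22 moved outside it, and 2 that were called reversed. Those 2 were the Itgb2 region, at 0.12, and the Itgb1 promoter, at 0.32, both with at least 50 tags per cell, which left few cells (158 against 22). The Itgb2 promoter, under the minimum of fragments and so not called, also changed sign, from -0.70 to 0.25, among cells with more other tags. The count of 1 of 10 genes past 1.2-fold over the region (7.22% of all genes compared, in either direction) became 0 at 1.5-fold (0.133% of all), 0 of the 2 with enough fragments at 50 tags or more (40.2%) and 0 of 6 at lower ATAC depth (11.2%), where Itgb2, at -0.31, was under the minimum of fragments. It became 2 of 10 without cells with excess overlaps (Itgb2 and Itgal, 7.59% of all) and at higher ATAC depth (Itgb1 and Itgb2, 10.1%), and 2 of 9 with thinned cells (Itgb2 and Itgb7, 9.23%) and among cells with more other tags (Itga2 and Itga4, 11.1%). It became 3 of 10 without the deepest 5% (Itgb2, Itgal and Itgam, 7.50%) and 3 of 9 among cells with fewer other tags (Itgb1, Itgb2 and Itgal, 12%). For 8 or more tags against 0 the 1 of 6 genes past 1.2-fold was Itgb1 (13.7% of all), while Itgb2, at -0.81, was under 200 fragments, and for 6 or more against exactly 1 it was Itgam (0.41, 1 of 10 genes, 8.18% of all). The count of 1 of 4 promoters (8.69% of all) became 2 of 4 (Itgav and Itgb1, 10.2%) for 6 or more against exactly 1. It became 0 of 6 for 5 or more against 2 or less CD61 tags (6.25%), 0 of 5 for the outer quantiles of CD61 as a centred log ratio (7.77%) or as a residual on the other antibodies (7.58%), and 0 of 3 among cells with more other tags (14.2%). With at least 50 tags no promoter had enough fragments, so the 0 there is no measurement. The outer quantiles of CD357 gave 1 of 10 genes (Itga2, 5.04% of all) in place of 0. Ligand gene regions with no minimum of fragments gave 4 of 18 in place of 0, where 29.0% of all genes were past 1.2-fold. Open sites numbered 166 at 5 times and 38 at 20 times the mean density, in place of 89, and the share of fragments at a promoter or site was 72.3% and 52.5%, in place of 63.3%. The cause of these changes was not tested. Sets by ATAC depth and other tags and the comparison with exactly 1 tag were added after the data were seen. In the main comparison by CD61, depth limited promoters more than gene regions. There 6 of 10 promoters had under 200 fragments, while all 10 regions had at least that many.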

Other observations

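Itgb3 held a stretch of 5.5 kb, from 42 to 47.5 kb after its start, without an insertion from any kept cell. All of it (100%) was masked as repeats in the reference, against 29.8% of the gene, and none of its bases were unknown. Of the 124 bins of 500 bp along Itgb3, 11 were empty. In Itga2 the longest empty stretch was 2.0 kb, 68.9% of it masked. Whether reads can be placed uniquely there was not tested.

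At single counts of CD61 tags, a division added after the data were seen, the Itgb1 promoter level was 23.3 in the 232 cells with 0 tags and 22.5 in those with 1, and lay between 16.6 and 18.7 at every higher count.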
